A study of Homo sapiens with 21 samples.

Results

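A set of 10 genes that encode amino acid transporters were followed through all 21 libraries of an RNA sequencing experiment on endoplasmic reticulum stress. They were chosen by symbol, out of 60671 genes in the table: SLC7A11, SLC7A5, SLC3A2, SLC7A1, SLC1A5, SLC1A4, SLC38A2, SLC43A1, SLC6A9 and SLC7A3. Each symbol matched 1 Ensembl gene, and earlier results of these data were known when the genes were chosen. The RNA came from cultures of OCI-AML3, an established human myeloid leukaemia line grown in RPMI, and HEK293T, an established human embryonic kidney line grown in DMEM. The OCI-AML3 groups were untreated cells (0 h) and cells given DMSO or tunicamycin, each for 4 h or for 24 h. HEK293T cells had received DMSO or tunicamycin for 24 h. The dose of tunicamycin was 1 μg/mL throughout, DMSO is its solvent, and each of the 7 groups held 3 libraries. Each group comes from 1 cell line, and line and medium changed together, so that they cannot be told apart. The labels number the replicates and do not say whether they were separate cultures, and p-values then measure the spread between these libraries, which may be technical.

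Tunicamycin, an inhibitor of N-linked protein glycosylation, disturbs folding in the endoplasmic reticulum and sets off the unfolded protein response. One arm of this response, the kinase PERK, slows general translation while the transcription factor ATF4 is made, and ATF4 is known for switching on genes of amino acid uptake and synthesis. It binds DNA as a dimer with C/EBP proteins at an element often written TGATGNAA, where N is any base, which reads TTNCATCA on the opposite strand. The genes studied here work by exchange, by sodium-driven uptake or by facilitated transport, and several of their proteins are themselves glycosylated.

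The total per library ranged from 13838480 to 19961819 counts (median 16657733). Levels are given as CPM, counts scaled to a common library size, here adjusted by TMM, which corrects for library composition, as mean ± SD of n = 3. A gene with no counts in a library could still be present at up to 3 counts, 0.137 to 0.231 CPM. Of 8 myeloid markers, 7 had a mean above 1 CPM in OCI-AML3 cells, and their summed level was 945 to 1207 CPM there against 22.3 to 27.9 CPM in HEK293T cells. MPO, a defining enzyme of myeloid granules, was low in OCI-AML3 cells (1.03 to 1.52 CPM as group means), and the mean of CEBPE was below 1 CPM in each group. The sum of 5 markers of HEK293T cells was 223 to 261 CPM in that line and 3.16 to 5.27 CPM in OCI-AML3 cells. By chi-square per degree of freedom of their counts, DMSO replicate 1 of 4 h differed more from the other two (19.6 and 19) than these from each other (3.84), as did tunicamycin replicate 3 of 24 h in OCI-AML3 cells (15.5 and 22.5 against 7.57), DMSO replicate 3 of 24 h in these cells (9.81 and 9.67 against 4.29) and replicate 2 of the untreated cells (9.28 and 10 against 4.49). Without the first, 7 of the 9 transporters tested were called at 4 h, against 7 with all libraries. At 24 h, 6 were called without the second and 5 without the third, against 5 with all libraries. The levels are averages over all cells of a culture, so that more responding cells and more RNA per cell cannot be told apart.

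Of the 10 genes, 9 had at least 1 CPM in at least 8 libraries and were tested with edgeR's quasi-likelihood test, with Benjamini-Hochberg adjustment over 14012 genes. All 9 were higher after tunicamycin in each of the 3 comparisons, at an adjusted p of at most 0.05. Among all genes tested, 18.5% were higher and 18.9% lower at that adjusted p in OCI-AML3 cells at 4 h, 23.5% and 27.7% at 24 h, and 12.6% and 13.1% in HEK293T cells. With a log2 fold change above 1 added as a second threshold, 7 of 9 were called at 4 h, 5 of 9 at 24 h and 8 of 9 in HEK293T cells. The shares of all genes called higher were 3.45%, 4.05% and 1.58%, and those called lower, where there was no transporter of the 9, were 1.47%, 2.26% and 0.550%. SLC7A11, SLC3A2, SLC38A2 and SLC6A9, 4 of 9, were called in all 3 comparisons, as were 0.528% of the genes tested, and all 9 against 4.45% passed the adjusted p alone in all 3. In each comparison and for all 9 genes, every tunicamycin library lay above every DMSO library, which was so for 22.9%, 25.0% and 23.4% of all genes. Medians over the 9 genes were 1.55, 1.04 and 1.46 on the log2 scale, and those over all genes tested were -0.02, -0.01 and -0.01. The 3 comparisons share no library. As the genes were chosen with earlier results of these data known, their excess over the shares of all genes gives no independent support.

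**Figure D1:**
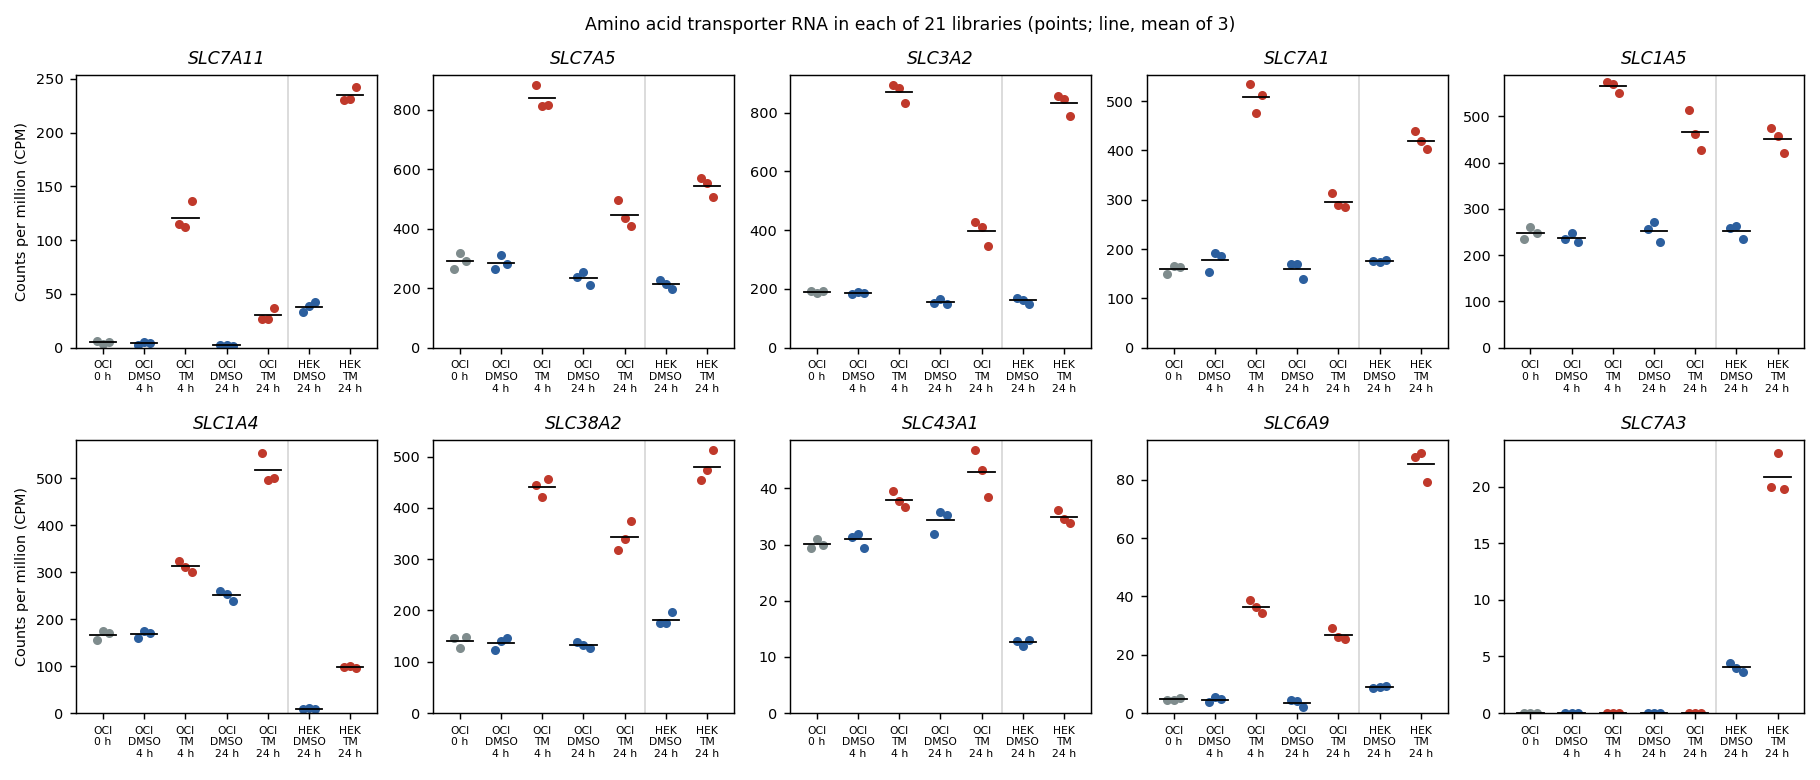
CPM of the 10 transporter genes in each of 21 libraries, 1 panel a gene, with a linear vertical axis of its own starting at 0. Points are libraries and lines are means of 3, in grey for untreated cells, blue for DMSO and red for tunicamycin (TM), with OCI-AML3 (OCI) left and HEK293T (HEK) right of the vertical line. The red points lie above the blue points of the same line and time in every panel except that of SLC7A3, which is at 0 in all 15 OCI-AML3 libraries.

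SLC7A11 (ENSG00000151012, chr4:138164097-138242349, minus strand) encodes xCT, the light chain of the exchanger that takes up cystine against glutamate and so feeds glutathione synthesis. In OCI-AML3 cells it was at 2.92, 5.12 and 4.01 CPM in the DMSO libraries of 4 h and at 115, 112 and 136 CPM in the tunicamycin libraries. At 24 h it was at 2.51, 2.60 and 1.39 CPM with DMSO and at 26.8, 26.4 and 36.7 CPM with tunicamycin. In HEK293T cells it was at 33.4, 38.6 and 42.1 CPM with DMSO and at 230, 231 and 242 CPM with tunicamycin. The treated OCI-AML3 libraries of 24 h thus overlapped with the HEK293T libraries without tunicamycin. The log2 fold changes were 4.91 (standard error 0.17), 3.78 (0.21) and 2.62 (0.14), at adjusted p = 5.7e-16, 1.4e-12 and 7.4e-13 in edgeR's test. At 4 h this was rank 10 of 14012 genes from the largest rise, at 24 h rank 17 and in HEK293T cells rank 37. SLC7A11 was the transporter with the lowest level per length in the DMSO-treated OCI-AML3 cells apart from SLC7A3, as given below.

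An antisense transcript, SLC7A11-AS1, overlaps exons of SLC7A11 and moved with it. It was at 0.199 ± 0.178 CPM with DMSO and 4.86 ± 1.15 CPM with tunicamycin at 4 h, at 0.116 ± 0.0725 and 1.15 ± 0.565 CPM at 24 h, and at 1.41 ± 0.692 and 9.12 ± 2.17 CPM in HEK293T cells. Its log2 fold change in HEK293T cells was 2.66 (standard error 0.31), and none is given for OCI-AML3 cells, where most DMSO libraries held 3 counts or fewer. Whether the counting used the strand is not given in the sources used here, so that reads of the 2 genes cannot be told apart. The antisense gene held few reads beside the 121 CPM of SLC7A11 at 4 h.

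SLC3A2 (ENSG00000168003, chr11:62856004-62888880, plus strand) encodes the heavy chain 4F2hc, or CD98, which carries light chains such as xCT and LAT1 to the cell surface. At 4 h it was at 182, 188 and 185 CPM with DMSO and at 892, 883 and 832 CPM with tunicamycin. At 24 h the values were 151, 165 and 148 CPM against 429, 411 and 346 CPM. In HEK293T cells they were 170, 162 and 149 CPM against 856, 847 and 788 CPM. The DMSO libraries of the lines overlapped, and so did treated HEK293T cells at 24 h and treated OCI-AML3 cells at 4 h. On the log2 scale the changes were 2.23, 1.35 and 2.37, each with a standard error of 0.07, at adjusted p of at most 1.2e-12 in edgeR's test. A match of the element starts at base 38 counted from the RefSeq start at position 62881699, in a coding exon of some GENCODE transcripts. It is shown on the plus strand of GRCh38 at chr11:62881725-62881754, with the match in capitals:
SLC3A2: tgcaggactccTTACATCAgctcctctgag

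SLC7A5 (ENSG00000103257, chr16:87830023-87869507, minus strand) encodes LAT1, the light chain that exchanges large neutral amino acids such as leucine. It was at 266, 311 and 281 CPM with DMSO and at 884, 813 and 816 CPM with tunicamycin at 4 h. At 24 h it was at 237, 253 and 210 CPM against 495, 435 and 410 CPM. HEK293T cells held 227, 215 and 198 CPM against 570, 553 and 508 CPM. The groups of each pair were well apart, and the value at 24 h was the smallest of the 3. The log2 fold changes were 1.55, 0.94 and 1.35 (standard error 0.09 each). The value of 0.94, with a 95% interval of 0.75 to 1.12, missed the threshold of 1, and it passed at 1.01 when library sizes were used without TMM and at up to 1.04 when 1 of 3 libraries of that time was left out (DMSO replicate 2, tunicamycin replicate 2 or tunicamycin replicate 3). RSEM may divide reads between SLC7A5 and its pseudogenes, and this was not tested. After any such division, SLC7A5P1 and SLC7A5P2 held group means of at most 1.39 CPM. The window on the minus strand at chr16:87868808-87868837, whose match in capitals starts at base 682 counted from the RefSeq start, in an intron, reads:
SLC7A5: tccctgcatccTTGCATCActacgcccctg

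The ratio of RNA of the heavy chain SLC3A2 to that of the light chain SLC7A5 was higher with tunicamycin in both lines. Light chains other than SLC7A5 and SLC7A11 were not included. CPM per kilobase of merged exons of SLC3A2 divided by that of SLC7A5 was 0.483 ± 0.0308 with DMSO and 0.774 ± 0.0312 with tunicamycin at 4 h. At 24 h the ratio was 0.496 ± 0.0270 and 0.660 ± 0.0389, and in HEK293T cells 0.561 ± 0.000613 and 1.14 ± 0.0185. The 3 libraries of each tunicamycin group lay above those of the DMSO group. With SLC7A11 added to the light chains the ratio was still higher in each tunicamycin group, for example 0.722 ± 0.0311 against 0.480 ± 0.0313 at 4 h. Which of the 2 genes has more RNA per length depends on the length used. The fold difference of the ratio between groups does not, because the same annotated length divides every group. Whether the transcripts made differed in length between groups was not tested. SLC7A11 was at 0.686% of SLC7A5 per kilobase with DMSO at 4 h and at 7.16% with tunicamycin, against 8.89% and 21.4% in HEK293T cells.

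The cationic amino acid transporters were represented by SLC7A1 and SLC7A3. SLC7A1 (ENSG00000139514, chr13:29509414-29595688, minus strand) encodes CAT1, the widely expressed uptake route for arginine and lysine. It was at 154, 193 and 186 CPM with DMSO and at 534, 476 and 513 CPM with tunicamycin at 4 h. At 24 h it was at 170, 170 and 139 CPM against 314, 289 and 286 CPM, and in HEK293T cells at 175, 174 and 178 CPM against 439, 419 and 402 CPM. With DMSO at 24 h the HEK293T libraries lay just above those of OCI-AML3 cells, and the difference did not pass the test (adjusted p = 0.13 in edgeR's test). Fitted log2 fold changes were 1.51, 0.89 and 1.26 (standard error 0.08 each), and that at 24 h missed the fold threshold. SLC7A1 held 2 matches of the element, at base 8 counted from the RefSeq start in the untranslated region and at base 532 in an intron. Their windows are at chr13:29595663-29595692 and chr13:29595139-29595168 on the minus strand:
SLC7A1 first match: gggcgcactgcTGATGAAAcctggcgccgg
SLC7A1 second match: ggcgtggtgcaTGATGCAAcaccgagtgag

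SLC7A3 (ENSG00000165349, chrX:70925579-70931125, minus strand) encodes CAT3, a cationic transporter of more restricted expression. It had 0 counts in all 15 OCI-AML3 libraries, treated or not, which allows at most 0.231 CPM in a library. In HEK293T cells it was at 4.46, 3.96 and 3.66 CPM with DMSO and at 20, 23.0 and 19.8 CPM with tunicamycin. Against the limit of the OCI-AML3 libraries of 24 h, HEK293T cells were at least 17.4-fold higher with DMSO and at least 93.8-fold higher with tunicamycin. As it passes 1 CPM in only 6 libraries, it was not among the 9 genes tested. With a filter of 1 CPM in 3 libraries its log2 fold change in HEK293T cells was 2.38 (standard error 0.17, adjusted p = 3.6e-07 in edgeR's test). SLC7A3 RNA was therefore detected in 1 of the 2 lines, and there it was higher with tunicamycin in every library.

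SLC1A5 and SLC1A4 encode ASCT2 and ASCT1, sodium-dependent exchangers of neutral amino acids, the first best known for glutamine and the second for alanine, serine and cysteine. SLC1A5 (ENSG00000105281, chr19:46774883-46788594, minus strand) was at 234, 247 and 229 CPM with DMSO and at 573, 569 and 551 CPM with tunicamycin at 4 h. At 24 h it was at 257, 271 and 229 CPM against 514, 461 and 427 CPM. HEK293T cells held 259, 264 and 234 CPM against 474, 458 and 421 CPM. At 24 h the libraries of the lines overlapped both with DMSO and with tunicamycin. The log2 fold changes were 1.25, 0.89 and 0.84 (standard error 0.08 each), the last 2 below the fold threshold. An antisense transcript without a symbol, ENSG00000275719, overlaps exons of SLC1A5 and was at 48.4 and 103 CPM at 4 h, 51.7 and 90.1 CPM at 24 h and 55.1 and 87.5 CPM in HEK293T cells. Its log2 fold changes of 1.08, 0.80 and 0.67 lay beside those of SLC1A5, and its reads cannot be told apart from those of SLC1A5 without the strand. The third RefSeq start of SLC1A5 has a match 97 bases before it. This match is in an untranslated region of 1 of the 3 GENCODE transcripts that span it, at chr19:46784893-46784922 on the minus strand:
SLC1A5: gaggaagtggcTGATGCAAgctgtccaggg

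SLC1A4 (ENSG00000115902, chr2:64988477-65023865, plus strand) had the largest difference between the lines with DMSO among the 9 genes tested. OCI-AML3 cells held 160, 174 and 170 CPM with DMSO at 4 h and 324, 312 and 301 CPM with tunicamycin. At 24 h they held 260, 254 and 238 CPM with DMSO and 555, 496 and 500 CPM with tunicamycin. HEK293T cells held 9.03, 10.2 and 9.55 CPM with DMSO and 97.6, 99.2 and 95.5 CPM with tunicamycin. Treated HEK293T cells thus stayed below every OCI-AML3 library, although their rise was the steeper one. The log2 fold changes were 0.89 and 1.04 in OCI-AML3 cells (standard error 0.06) and 3.35 (0.08) in HEK293T cells, where adjusted p was 3.1e-19 in edgeR's test and the rank 19 of 14012. With DMSO at 24 h the log2 difference of HEK293T from OCI-AML3 cells was -4.71 (standard error 0.08). The lncRNA LINC02245, on the opposite strand without shared exons, had group means of 1.21 to 2.94 CPM in these comparisons. A match of the element lies 7 bases before the second RefSeq start. It is in an untranslated region of 1 of the 4 GENCODE transcripts that span it, at chr2:64989381-64989410 on the plus strand:
SLC1A4: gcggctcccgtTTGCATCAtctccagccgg

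SLC38A2 (ENSG00000134294, chr12:46358188-46372773, minus strand) encodes SNAT2, the sodium-coupled system A carrier of small neutral amino acids, known for its response to amino acid starvation. It was at 122, 141 and 146 CPM with DMSO and at 444, 421 and 456 CPM with tunicamycin at 4 h. At 24 h it was at 139, 133 and 127 CPM against 317, 339 and 375 CPM. In HEK293T cells it was at 175, 175 and 196 CPM against 455, 473 and 513 CPM. Every treated library stood well above every DMSO library in both lines. SLC38A2 had log2 fold changes of 1.69, 1.37 and 1.40 (standard error 0.08 each), all called. The match of the element starts at base 714 counted from the start, in an intron, at chr12:46372042-46372071 on the minus strand:
SLC38A2: gacgatcgataTTGCATCAgttttctttcc

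SLC43A1 (ENSG00000149150, chr11:57484534-57515780, minus strand) encodes LAT3, which moves large neutral amino acids without exchange or a sodium gradient. It was at 31.4, 31.9 and 29.4 CPM with DMSO and at 39.6, 37.7 and 36.7 CPM with tunicamycin at 4 h, and at 31.8, 35.8 and 35.2 CPM against 46.9, 43.3 and 38.5 CPM at 24 h. In HEK293T cells it was at 12.9, 12 and 13 CPM against 36.1, 34.6 and 33.9 CPM. It had the smallest change of the 9 genes in OCI-AML3 cells, while treated HEK293T libraries overlapped with the DMSO libraries of OCI-AML3 cells at 24 h. Its log2 fold changes were 0.30, 0.32 and 1.46 (standard error 0.08 each), with adjusted p = 0.0035, 0.0014 and 2.7e-12 in edgeR's test. At 4 h the adjusted p was 0.060 when genes with low counts were not filtered. No match of the element was found in the windows of SLC43A1.

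SLC6A9 (ENSG00000196517, chr1:43991500-44031467, minus strand) encodes GlyT1, the sodium- and chloride-dependent glycine transporter, best known from the nervous system. It was at 3.65, 5.50 and 4.64 CPM with DMSO and at 38.8, 36.2 and 34.3 CPM with tunicamycin at 4 h. At 24 h it was at 4.37, 4.13 and 2.16 CPM against 29.1, 26.0 and 25.5 CPM. In HEK293T cells it was at 8.62, 8.94 and 9.10 CPM against 87.8, 89.3 and 79.1 CPM. From a low level in both lines it thus rose 7.91-, 7.46- and 9.60-fold as fitted. The log2 fold changes were 2.98 (standard error 0.14), 2.90 (0.15) and 3.26 (0.12), and the ranks from the largest rise were 42, 36 and 21 of 14012. CCDC24, which overlaps SLC6A9 from the opposite strand, was at 1.23 to 2.15 CPM as group means and passed the adjusted p in none of the 3 comparisons. The lncRNA ENSG00000230615 lies opposite SLC6A9 without shared exons and was at 0.052 to 1.04 CPM, and further genes that overlap a transporter (ENSG00000260466 and MIR6775 at SLC7A5, RNU6-548P at SLC1A4, SLC38A2-AS1 at SLC38A2) were at most at 0.0213 CPM in these groups. The match of the element starts at base 76 counted from the start, in the untranslated region, at chr1:44031369-44031398 on the minus strand:
SLC6A9: cctcgggaggcTGATGCAActttcccttta

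**Figure D2:**
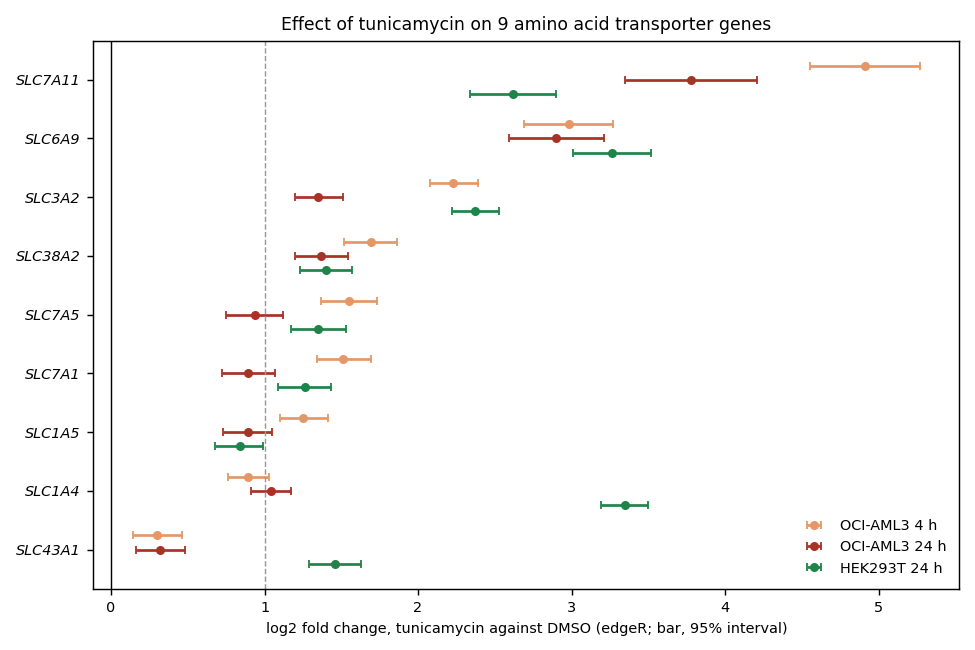
Log2 fold change of tunicamycin against DMSO for the 9 genes tested (horizontal axis), in OCI-AML3 cells at 4 h (orange) and 24 h (red) and in HEK293T cells at 24 h (green). Points are edgeR estimates, bars are 95% intervals and the dashed line marks a log2 fold change of 1. SLC7A11 has the largest value at 4 h (4.91) and SLC1A4 the largest in HEK293T cells (3.35), where the intervals of SLC1A4 and SLC43A1 lie wholly above, and that of SLC7A11 (2.62) wholly below, both OCI-AML3 intervals.

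Within OCI-AML3 cells the effects of tunicamycin at 24 h and at 4 h were compared by an interaction term. It was negative, a smaller rise at 24 h, for 6 of 9 genes at an adjusted p of at most 0.05 in edgeR's test, where 35.3% of all genes passed in either direction. The values were -1.13 for SLC7A11, -0.88 for SLC3A2, -0.62 for SLC7A1, -0.61 for SLC7A5, -0.36 for SLC1A5 and -0.32 for SLC38A2. SLC6A9 (-0.08, 95% interval -0.54 to 0.37), SLC43A1 (0.02, -0.20 to 0.25) and SLC1A4 (0.15, -0.03 to 0.33) did not pass. The term of SLC1A4 did pass in 1 of 20 alternative analyses. The terms of SLC3A2, SLC7A1 and SLC7A5 passed in all 20 alternative analyses, and those of SLC7A11, SLC1A5 and SLC38A2 in 19, 17 and 8 of 20. Without DMSO replicate 2 of 24 h, 3 of 9 genes passed, and adjusted p was 0.060 for SLC7A11, 0.061 for SLC1A5 and 0.077 for SLC38A2.

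Between the lines at 24 h, 6 of 9 interaction terms passed, where 26.8% of all genes did. The rise was larger in HEK293T cells for SLC1A4 by 2.30 on the log2 scale, SLC43A1 by 1.14, SLC3A2 by 1.02, SLC7A5 by 0.41 and SLC7A1 by 0.36, and smaller for SLC7A11, by -1.16. With DMSO, SLC1A4 and SLC43A1 were called lower in HEK293T cells and SLC7A11 and SLC6A9 higher, while SLC3A2 had a difference of 0.05, and the same DMSO libraries enter these values and the interaction terms. The terms of SLC7A11, SLC3A2, SLC1A4 and SLC43A1 passed in all 20 alternative analyses, those of SLC7A5 in 11 and of SLC7A1 in 8. SLC38A2 (0.03, 95% interval -0.21 to 0.27), SLC1A5 (-0.05, -0.27 to 0.17) and SLC6A9 (0.36, -0.06 to 0.79) did not pass, though SLC6A9 did at 0.56 without DMSO replicate 3 of OCI-AML3 cells at 24 h. Both interaction terms use the OCI-AML3 libraries of 24 h.

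The control comparisons gave the background against which these changes stand. Between DMSO at 4 h and untreated OCI-AML3 cells, 0 genes were called by edgeR, limma voom or DESeq2, 0% of 14012. At an unadjusted p under 0.05 there were 1160 genes in edgeR's test, of which 0 were among the 9, and the smallest p of the 9 was 0.079. Between DMSO at 24 h and at 4 h, 0 of 9 were called, against 4.15% of all genes, although SLC7A11 was at -1.05 without DMSO replicate 1 of 4 h and at -1.03 without DMSO replicate 2 of 24 h. At the adjusted p alone, SLC7A11 (-0.88), SLC7A5 (-0.29) and SLC3A2 (-0.26) were lower at 24 h, 3 of 9 against 21.6% of all genes, and SLC1A4 was higher (0.58). The values of SLC7A11 and SLC7A5 no longer passed without DMSO replicate 2 of 4 h or DMSO replicate 3 of 24 h, with adjusted p of 0.061 to 0.077. DMSO levels of SLC1A4 were thus higher at 24 h, 251 ± 11.7 CPM against 168 ± 7.21 CPM, and its rise with tunicamycin is relative to that level.

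With DMSO at 24 h, 4 of 9 genes were called between the lines, where 45.2% of all genes were. SLC7A11 (log2 difference 4.12) and SLC6A9 (1.31) were higher in HEK293T cells, and SLC1A4 (-4.71) and SLC43A1 (-1.44) were lower. SLC38A2 was higher by 0.45 (adjusted p = 2.5e-05), below the fold threshold. SLC7A1 (0.14), SLC3A2 (0.05), SLC1A5 (0.00) and SLC7A5 (-0.13) did not pass the adjusted p, and the signs of all 4 changed with the scaling or filter used. Without TMM all 4 passed it, at 0.48, 0.40, 0.34 and 0.21, as did SLC7A5 at -0.31 without a filter on low counts and SLC7A1 at 0.22 or 0.21 without DMSO replicate 1 or 2 of OCI-AML3 cells. Without TMM the median over all genes moved from -0.01 to 0.33 in this comparison, so these differences hold relative to the scaling.

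Levels of different genes were set side by side as CPM per kilobase of merged exons. In OCI-AML3 cells with DMSO at 24 h the order was SLC1A5 (75.7 ± 6.49), SLC7A5 (48.9 ± 4.61), SLC1A4 (36.1 ± 1.69), SLC3A2 (24.2 ± 1.39), SLC7A1 (20.7 ± 2.34), SLC38A2 (20.4 ± 0.976), SLC43A1 (9.72 ± 0.620), SLC6A9 (0.677 ± 0.232) and SLC7A11 (0.224 ± 0.0701), with SLC7A3 at 0. Among neighbours with values above 0, libraries of SLC7A1 and SLC38A2 overlapped and others did not. With tunicamycin at 4 h, SLC7A5 (176 ± 8.39) and SLC1A5 (169 ± 3.49) overlapped at the top, SLC3A2 followed at 136 ± 5.08, and SLC7A11 at 12.6 ± 1.36 had moved ahead of SLC43A1 (10.8 ± 0.419) and SLC6A9 (6.95 ± 0.428). In HEK293T cells with DMSO SLC1A5 (75.7 ± 4.90) was again highest, and the lowest was SLC1A4 at 1.38 ± 0.0826, just under SLC6A9 (1.69 ± 0.0466) and SLC7A3 (1.78 ± 0.179). With tunicamycin SLC1A5 (135 ± 8.12) and SLC3A2 (130 ± 5.81) overlapped at the top of the order there. The order depends on the length used. Per kilobase of the longest transcript, SLC3A2 alone was at the top in 2 of the 3 tunicamycin groups, at 306 ± 11.4 at 4 h against 196 ± 4.04 for SLC1A5, and at 292 ± 13.1 against 156 ± 9.39 in HEK293T cells. In OCI-AML3 cells at 24 h with tunicamycin SLC1A5 (162 ± 15.3) came first on that scale, as per kilobase of merged exons (140 ± 13.2), and overlapped with SLC3A2 (139 ± 15.4). On that scale SLC43A1 (15.1 ± 0.587) stayed ahead of SLC7A11 (12.6 ± 1.36) at 4 h with tunicamycin, and SLC7A11 overlapped with SLC6A9 (11.4 ± 0.700). SLC1A5 was highest with DMSO at 24 h in both lines under either length. The summed level of the 10 genes was 1230 ± 71.0 CPM with DMSO and 3728 ± 102 CPM with tunicamycin at 4 h, 1223 ± 84.6 and 2567 ± 145 CPM at 24 h, and 1057 ± 22.2 and 3199 ± 84.9 CPM in HEK293T cells.

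The windows printed with the genes come from a search for the element on both strands near RefSeq start sites on GRCh38.p14, from 250 bases before to 1000 bases after each start. Bases after a start are counted with the start itself as the first. RefSeq windows were at hand for 8 of the 10 genes, 14 windows in all, and the other two are SLC7A11 and SLC7A3. In the 300 bases around the start, 4 of 14 windows and 4 of 8 genes held a match (SLC1A4, SLC1A5, SLC3A2 and SLC7A1). Of all 35116 windows of that length 3.62% did, and of all 27305 genes 4.46%. In 1250 bases, 9 of 14 windows and 7 of 8 genes held one, against 14.3% of windows and 16.6% of genes. Genes with several starts have more windows and overlapping ones, and the match of SLC1A4 and that of SLC3A2 were each seen from 2 starts. A match says only that these letters are present, and binding was not measured here. Of the 4 genes called in all 3 comparisons, SLC7A11 had no window, and only SLC3A2 held a match in the short windows. Among the other tested genes, SLC1A4, SLC1A5 and SLC7A1 held one there, and SLC7A5 and SLC43A1 did not.

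**Figure D3:**
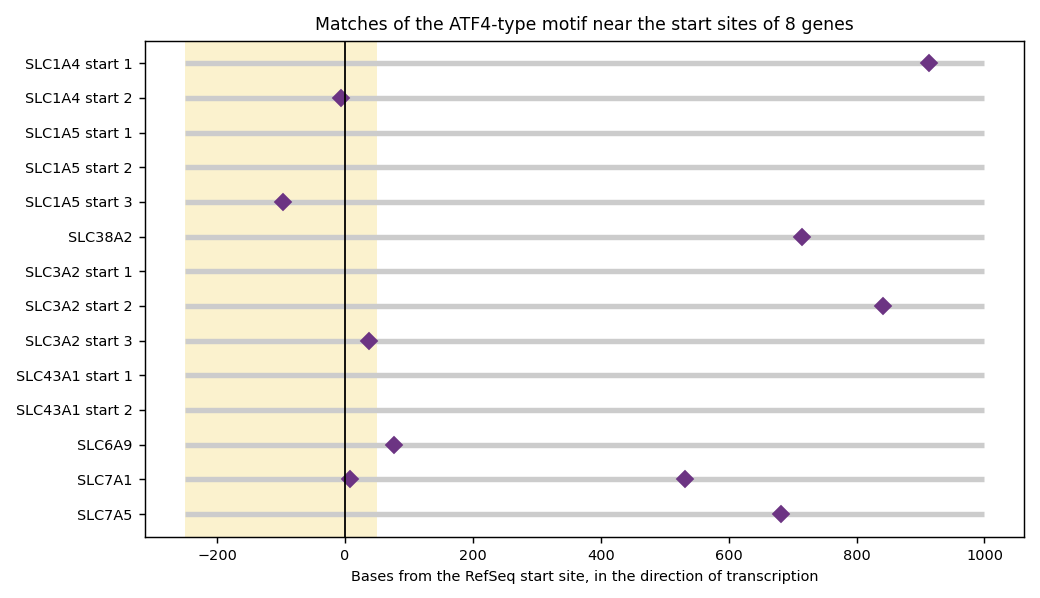
Matches of the element (diamonds) in the windows of 8 transporter genes, 1 line for each of 14 RefSeq start sites, with starts of a gene numbered in the direction of transcription. The horizontal axis is the position of the first base of the match, counted with the start itself as the first base, and the shaded part is the 300-base window. Matches start between 97 bases before a start and base 914 counted from a start, and SLC43A1 has none.

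Other genes of amino acid transport were counted as lists written from general knowledge. Of 41 further transporters of the plasma membrane or lysosome, 18 were tested. At the adjusted p, 5 rose and 6 fell in OCI-AML3 cells at 4 h, where 18.5% and 18.9% of all genes did. At 24 h 9 rose and 1 fell, against 23.5% and 27.7%. In HEK293T cells 6 rose and 1 fell, against 12.6% and 13.1%. The medians of the 18 were -0.04, 0.28 and 0.21. Only SLC38A1 was called in all 3 comparisons, with log2 fold changes of 1.30, 1.65 and 1.24. This paralog of SLC38A2 encodes the glutamine carrier SNAT1, and it was at 32.2 ± 2.85 and 79.2 ± 2.03 CPM at 4 h, at 19.9 ± 2.29 and 62.5 ± 6.63 CPM at 24 h and at 201 ± 14.2 and 475 ± 14.8 CPM in HEK293T cells. SLC38A9, the lysosomal arginine sensor of mTORC1, was called in HEK293T cells (1.02) and had 0.43 and 0.86 in OCI-AML3 cells. None of the 18 was called lower, where 1.47%, 2.26% and 0.550% of all genes were.

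Of 10 mitochondrial amino acid carriers 8 were tested, and their medians were -0.33, -0.34 and -0.02. At the adjusted p, 1 rose and 5 fell at 4 h, against 18.5% and 18.9% of all genes. At 24 h 0 rose and 5 fell, against 23.5% and 27.7%. In HEK293T cells 0 rose and 1 fell, against 12.6% and 13.1%, so that the fall there was near the share of all genes. SLC25A22, a mitochondrial glutamate carrier, was called lower at 4 h (-1.03, standard error 0.08), from 49.9 ± 1.84 to 24.5 ± 1.14 CPM. It had -0.93 at 24 h and -0.02 in HEK293T cells.

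Of the 8 genes of the ATF4 axis, all were called higher at 4 h, 4 at 24 h and 6 in HEK293T cells. The shares of all genes were 3.45%, 4.05% and 1.58%, and at the adjusted p alone 18.5%, 23.5% and 12.6%. The medians of the 8 were 2.07, 1.31 and 1.92. At the adjusted p all 8 rose at both times in OCI-AML3 cells, and in HEK293T cells 7 rose while ATF5 fell (-0.39), a gene that rose 2.1-fold at 4 h and 3.99-fold at 24 h in OCI-AML3 cells. DDIT3, which encodes the pro-apoptotic factor CHOP, had 5.36, 4.33 and 3.69, and TRIB3, a pseudokinase that restrains this pathway, had 4.64, 1.99 and 2.53. ATF3 had 3.66 and 2.24 at 4 h and in HEK293T cells and 0.56 at 24 h in OCI-AML3 cells. ASNS, which makes asparagine, had 2.44, 1.71 and 1.95. Of this list 6 of 8 genes had a smaller rise at 24 h than at 4 h by the interaction term and ATF5 had a larger one (by 0.93), beside 6 smaller and 0 larger among 9 transporters. Of the 18 other transporters, the interaction passed for 7, a share close to the 35.3% of all genes that passed in either direction. All 7 were positive (a higher log2 fold change at 24 h than at 4 h). The median over the 18 was 0.35, against -0.02 over all genes tested. The share of all genes was not split by direction, so none stands beside the directions of these lists.

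SLC7A11 is also known as a target of NRF2, the factor of the oxidative stress response. Of 7 other NRF2 targets, all tested, the medians were -0.09, 0.10 and -0.06. At the adjusted p, 2 rose and 2 fell at 4 h, against 18.5% and 18.9% of all genes. At 24 h 3 rose and 2 fell, against 23.5% and 27.7%. In HEK293T cells 1 rose and 2 fell, against 12.6% and 13.1%. HMOX1, haem oxygenase, was called higher at 4 h (1.80) and at 24 h (1.20), at levels of 0.477 to 2.41 CPM as group means, and had 0.12 in HEK293T cells at 17.1 and 18.6 CPM. SRXN1, which reduces oxidised peroxiredoxins, had -0.57, -0.28 and -0.31.

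**Figure D4:**
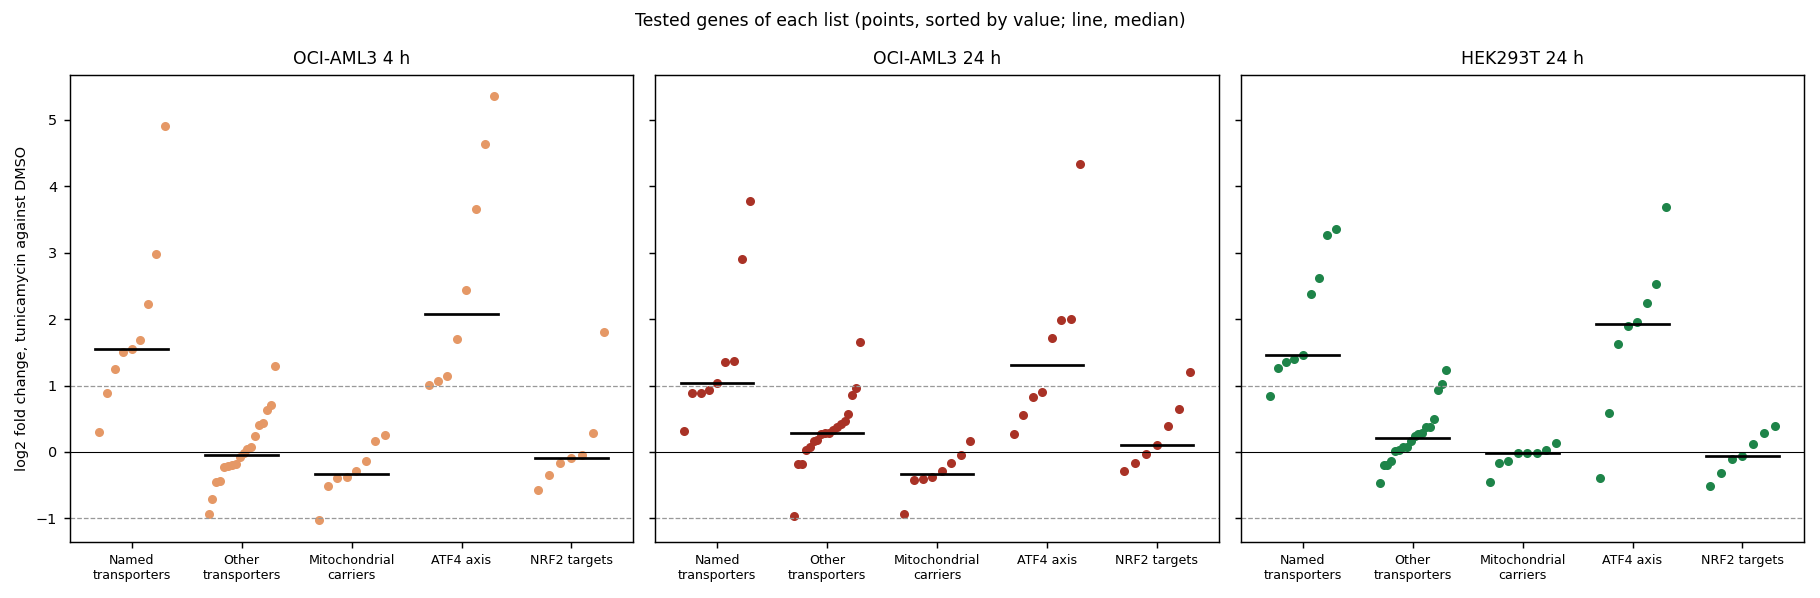
Log2 fold change of tunicamycin against DMSO (vertical axis) of each tested gene of 5 lists, for OCI-AML3 cells at 4 h (left) and 24 h (middle) and HEK293T cells (right). Points are genes in order of value, black lines are medians and dashed lines mark 1 and -1. The named transporters have medians of 1.55, 1.04 and 1.46, between those of the ATF4 axis (2.07, 1.31 and 1.92) and those of the other lists, which lie between -0.34 and 0.28.

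Finally, the genes closest in pattern to each transporter were sought by Pearson's r of log2 CPM over the 15 OCI-AML3 libraries. All 15 share the contrast of treated and untreated groups, so that high values are common, and r is given as a description. SLC7A11 was closest to PMAIP1, which encodes the BH3-only protein NOXA (r = 0.995), APOL6 (0.992) and IFRD1 (0.989). SLC3A2 was closest to CARS1 (0.994), IFRD1 (0.993) and ASNS (0.992), and SLC7A5 to GARS1 (0.988), SEC61A1 (0.985) and IFRD1 (0.980). CARS1 and GARS1 encode the tRNA synthetases of cysteine and glycine, and that of alanine, AARS1 (0.991), was near SLC1A5 beside its antisense transcript (0.995) and GRB10 (0.991). SLC7A1 was closest to TXNDC11 (0.989), SESN2 (0.982) and CREB3L2 (0.981), and SLC6A9 to HYOU1 (0.992), WARS1 (0.986) and DNAJC3 (0.985). HYOU1 and DNAJC3 encode chaperones of the endoplasmic reticulum, as does DNAJB9 (0.994), which was closest to SLC38A2 before SLFN11 (0.993) and SLC33A1 (0.991). SLC1A4 was closest to P2RX7 (0.986), H4C14 (0.985) and NUCB1 (0.984), and SLC43A1 to CERS5 (0.953), PPM1M (0.945) and P2RX4 (0.944). Between transporters r was 0.981 for SLC7A11 and SLC3A2 and 0.623 for SLC7A11 and SLC1A4.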

How the data were processed

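The authors made poly-A selected libraries, sequenced them as paired ends, aligned the reads with STAR and counted them per gene with RSEM, on GRCh38 according to the labels. The deposited table holds RSEM expected counts of 60671 genes, neither scaled nor filtered, with 3.54 to 4.22% of a library's values not whole. RSEM shares reads that align to several genes by estimate, and whether the strand was used is not given in the sources used here. All 21 columns were matched to samples by the labels, and 0 pairs of libraries were identical.

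Counts were rounded, scaled by TMM (factors 0.891 to 1.15) and modelled in R 4.3.3 by the quasi-likelihood method of edgeR 4.0.16, in 1 design with a coefficient per group (7) and no block. The test covered 14012 genes, those reaching 1 CPM in 8 or more of 21 libraries. Calls needed an adjusted p (Benjamini-Hochberg) no higher than 0.05 with a log2 fold change beyond 1 or -1, and interactions the adjusted p alone. The fit was tested on simulated data with 200 changed genes. For the comparison at 4 h 99.5% were recovered with 1 false call among 14012 genes, and for the interaction with time 98% with 17. How recovery depends on the size of a change was not tested. These shares therefore give no recovery for interactions as small as that of SLC38A2 with time (-0.32).

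The 10 genes and the lists were chosen with earlier results of these data known, and the lists give no independent support. All 10 are named, other lists are given by counts with at most the 3 called genes farthest from 0 named in each direction, and for each tested transporter the 3 genes with the highest r are named (log2 CPM, prior count 2). Overlapping genes and pseudogenes are named, apart from an item that is not reported here. ASNS among the ATF4 list, SRXN1, ATF5 at 4 h and in HEK293T cells, and ATF3 at 24 h in OCI-AML3 cells are named outside this rule, after their values were seen. Gene positions and merged exon lengths are from GENCODE release 44 on GRCh38, a later release than the Ensembl annotation of the counts, so that levels per kilobase are approximate, with a position for 99.6% of genes, and start sites from RefSeq. A floor of 3 counts covers counting error only. Alternatives were limma voom (limma 3.58.1), the Wald test of DESeq2 1.42.0, its size factors within edgeR, no TMM, other filters, the compared groups alone, a replicate block, and leaving out each library. Figures were drawn with matplotlib.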

Additional observations from a re-analysis of the deposited data

Results flagged for a closer look

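For 12 results the effect of tunicamycin differed between times or lines by a test of the difference itself, at an adjusted p of at most 0.05 in edgeR's test. For OCI-AML3 cells the differences of 24 h from 4 h on the log2 scale were -1.13 for SLC7A11, -0.88 for SLC3A2, -0.62 for SLC7A1, -0.61 for SLC7A5, -0.36 for SLC1A5 and -0.32 for SLC38A2, all smaller rises at 24 h. Between HEK293T and OCI-AML3 cells at 24 h they were 2.30 for SLC1A4, 1.14 for SLC43A1, 1.02 for SLC3A2, 0.41 for SLC7A5, 0.36 for SLC7A1 and -1.16 for SLC7A11. Groups of 3 libraries were not tested gene by gene for single libraries that stand apart.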

How the results depend on the processing

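In the 3 tunicamycin comparisons, 378 values of the 9 tested genes under 14 alternatives for each comparison were all positive, and 377 passed the adjusted p. With the adjusted p alone, 9 genes passed at 24 h in OCI-AML3 cells and 4 between DMSO at 24 h and 4 h. With the fold threshold kept, the count between DMSO at 24 h and 4 h was 0 with all libraries and 0 to 1 when a library was left out. At the adjusted p alone, by which interactions were called, the count of interactions with time was 3 to 6 when a library was left out. All genes called were 5249, 7163 and 3606 with the adjusted p alone, and 1401 at 24 h and 514 in HEK293T cells without a filter on low counts. With the longest transcript as length, the ratio of SLC3A2 to SLC7A5 per kilobase was 1.05 in untreated cells and 1.66 with tunicamycin at 4 h. The cause of these shifts was not tested, apart from the dropped threshold and the added genes.

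Signs changed for 7 results that were not past the adjusted p in the analysis reported. Between the lines with DMSO these were SLC7A5 (0.21 without TMM, adjusted p = 0.029), SLC3A2 (-0.13 without a filter and -0.01 with 1 CPM in 3 libraries), SLC7A1 (-0.04 without a filter) and SLC1A5 (-0.04 with DESeq2 or its size factors, -0.18 without a filter, -0.06 with 1 CPM in 3 libraries, -0.02 with the groups alone). The interaction of SLC38A2 with line was -0.01 with DESeq2, its size factors, the filter of 3 libraries or the groups alone, and -0.09 without TMM. That of SLC6A9 with time was 0.02 without TMM. Leaving out a library gave -0.04 to 0.10 for SLC1A5, -0.08 to 0.05 for SLC38A2, -0.01 to 0.12 for the interaction of SLC43A1 with time and -0.29 to 0.12 for that of SLC6A9. The cause was not tested.

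Deviations of same-numbered libraries correlated at -0.139 to 0.132, positive in all 3 pairs at 4 h and in HEK293T cells but above 0.1 in all pairs of no comparison, so that the numbers were not taken as pairs. With the replicate block, 7, 5 and 8 of 9 genes were called, as without it, and 690, 889 and 296 of all genes. In HEK293T cells every tunicamycin library correlated best with the DMSO library of its own number, and in OCI-AML3 cells some did not. Depth limits SLC7A3 in OCI-AML3 cells, where 3 counts correspond to at most 0.231 CPM.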
